A study of Rattus norvegicus with 8 samples.

Results

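Sphingosine-1-phosphate (S1P) is a signaling lipid, and the 7 genes described here encode the machinery that makes, removes, exports, and senses it. They were chosen by gene name, with the differences between the groups of these same rats already known, so the group differences below are a description and not independent evidence. The genes are *Sphk1*, *Sphk2*, *Sgpl1*, *Sgpp1*, *Spns2*, *S1pr2*, and *S1pr3*, and all 7 were found among the 32883 genes of the count table. Polyadenylate mRNA of the right Achilles tendon was sequenced from 8 wild-type male Sprague-Dawley rats, 8 to 10 weeks old. In the 12 h p.r. (post-running) group, 4 rats ran uphill on a treadmill for 1 h and were killed 12 h later. In the naïve control (NC) group, 4 rats rested in their cages. Controls of the study's one-time treadmill experiment were killed together with its 12 h p.r. group. For the sequenced NC rats the time of killing is not stated, so a difference in time of day between the groups cannot be told. Running was prompted with airflow and a mild electric stimulus, which caged rats are not described as receiving, so these cannot be told apart from the run itself. The libraries are labelled as replicates 1 to 4 of each group and each is taken as 1 rat, although no source states that outright, so p values measure the spread between these samples. The tendon tissue was pulverized whole, so fewer cells of a type and less RNA per cell cannot be told apart.

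Sphingosine kinases, encoded by *Sphk1* and *Sphk2*, phosphorylate sphingosine to S1P. The lipid is then either degraded for good by the S1P lyase of *Sgpl1*, returned to sphingosine by phosphatases such as that of *Sgpp1*, or carried out of the cell by the transporter of *Spns2*. Outside the cell it acts on G protein-coupled receptors, of which *S1pr2* and *S1pr3* are found on fibroblasts, smooth muscle, and other stromal cells, and it is best known for its part in lymphocyte traffic, blood vessel stability, and fibrosis.

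*Sphk1* was the member that differed most, and its mRNA was lower in every 12 h p.r. rat than in every NC rat, whereas *Sphk2* was slightly higher in every 12 h p.r. rat. Of all 13937 genes tested, 2.55% were likewise lower in every 12 h p.r. rat and 3.52% higher. In edgeR's quasi-likelihood test neither kinase gene passed an adjusted p value of 0.05 (0.301 and 0.433). By DESeq2's Wald test *Sphk1* did (0.000758) and *Sphk2* did not (0.407). The lyase, phosphatase, exporter, and receptor genes had overlapping values in both groups. The tendon held far more *Sphk2* than *Sphk1* mRNA in both groups, and the smaller contribution of *Sphk1* was smaller still at 12 h p.r.

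The libraries held between 7350509 and 12951397 reads on genes. Expression is given either as CPM, which are reads per 1000000 reads of a library size scaled by the trimmed mean of M values (TMM), or as the deposited FPKM, which also divide by gene length and are used wherever genes are compared with each other. Tenocyte markers (10 of 10 tested) summed to 20300 to 56500 CPM at 12 h p.r. and 34600 to 51900 CPM in NC, and none was at 0. The library of 12 h p.r. replicate 3 stood apart. It had the lowest tenocyte sum and 59200 CPM of skeletal muscle markers, against at most 11000 CPM in the other rats. The summed level of endothelial markers ran from 1700 to 2070 CPM at 12 h p.r. and 1740 to 1850 CPM in NC, that of pericyte and smooth muscle markers from 2020 to 2610 and 1740 to 2290 CPM, and that of leukocyte markers from 509 to 2460 and 737 to 3590 CPM. Red cell and platelet markers summed to at most 58.9 CPM, and cartilage and bone markers to 18.7 to 538 CPM and 48.7 to 1390 CPM.

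The 7 genes kept a similar order of level in both groups, which answers how much of each transcript a tendon holds. In NC the deposited FPKM were 29.0 ± 2.96 for *Spns2* (SD, n = 4 rats), 22.3 ± 1.93 for *Sgpl1*, 17.6 ± 1.61 for *Sgpp1*, 13.3 ± 0.815 for *S1pr2*, 12.1 ± 1.03 for *Sphk2*, 4.51 ± 0.964 for *S1pr3*, and 1.51 ± 0.616 for *Sphk1*. The ranges of *Sgpl1* and *Sgpp1* overlapped, as did those of *S1pr2* and *Sphk2*, although the first of each pair was the higher in all 4 NC rats. All other neighbors in this order had ranges that did not overlap. At 12 h p.r. the FPKM were 31.5 ± 3.04 for *Spns2* (SD, n = 4), 22.8 ± 4.96 for *Sgpl1*, 15.6 ± 2.81 for *Sgpp1*, 14.8 ± 1.3 for *Sphk2*, 12.8 ± 3.13 for *S1pr2*, 4.96 ± 1.05 for *S1pr3*, and 0.401 ± 0.0407 for *Sphk1*. Here the ranges of the first 5 genes overlapped with those of their neighbors. *Sphk2* and *S1pr2* had exchanged places, with *Sphk2* the higher in 3 of 4 rats, while *S1pr3* and *Sphk1* again stood apart below them. The plot of FPKM by rat shows this order.

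**Figure D1:**
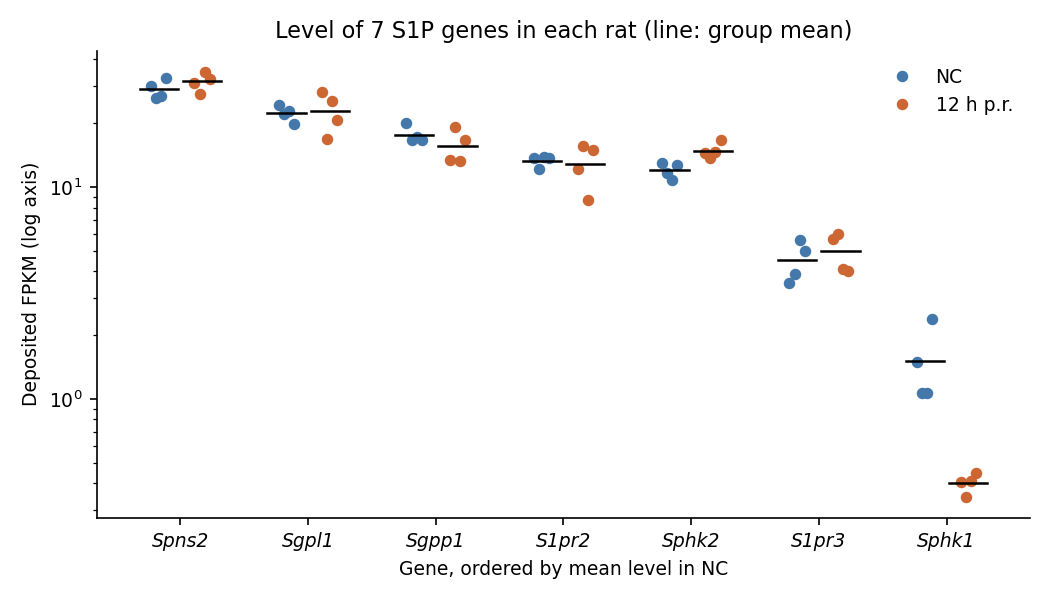
Deposited FPKM of the 7 genes (log axis) in each NC rat (blue) and each 12 h p.r. rat (orange), with a line at the mean of the 4 rats and the genes ordered by their NC mean. *Sphk1* was the lowest gene in both groups, at 1.51 FPKM in NC and 0.401 FPKM at 12 h p.r., and the gene whose group means lie farthest apart on this axis.

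*Sphk1* (ENSRNOG00000010626) encodes the kinase isoform of the cytosol, which is induced by growth factors and cytokines and moves to the plasma membrane when activated. It had 71, 33, 54, and 106 reads in NC replicates 1 to 4, which is 5.69, 4.05, 4.08, and 9.01 CPM. In 12 h p.r. replicates 1 to 4 it had 12, 10, 13, and 18 reads, which is 1.55, 1.32, 1.55, and 1.69 CPM. The groups did not overlap, and NC replicate 4 was well above the other NC rats. Exact Poisson intervals at 95%, which cover counting error only, reached at most 2.71 CPM in the 12 h p.r. rats and began at 2.79 CPM or higher in the NC rats. Among the NC rats, the interval of replicate 4 (7.37 to 10.9 CPM) lay above that of replicate 2 (2.79 to 5.68 CPM), so those rats differed by more than counting error.

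The means were 1.53 ± 0.154 CPM at 12 h p.r. and 5.71 ± 2.33 CPM in NC (SD, n = 4 each), a log2 fold change of −1.89 with a standard error (SE) of 0.31, or 3.71-fold lower at 12 h p.r. In edgeR's quasi-likelihood test the adjusted p value over all 13937 genes tested was 0.301, so *Sphk1* did not pass 0.05. Its unadjusted p value of 0.000173 was the 8th lowest of those genes and its log2 fold change the 20th lowest. DESeq2's Wald test, with a log2 fold change of −1.91 (SE 0.38), gave an adjusted p value of 0.000758, under 0.05. By that test 0.266% of 15402 genes with an adjusted p value were called lower at 12 h p.r., while by edgeR 0.00718% of genes (1 gene) were called lower and 0.0% higher. The call on *Sphk1* therefore depended on the test. Without NC replicate 4 the log2 fold change was −1.58, and across the fits without 1 rat it ran from −2.03 to −1.58.

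The leukocyte marker sum was highest in NC replicates 4 and 1 (3590 and 3240 CPM), the rats with the most *Sphk1*. At 12 h p.r. the leukocyte marker sum was highest in replicate 2 (2460 CPM), which held 1.32 CPM of *Sphk1*. The *Sphk1* counting intervals of the 12 h p.r. rats overlapped (0.632 to 2.42 CPM in replicate 2 and 1.0 to 2.67 CPM in replicate 4). Which of these rats held the least *Sphk1* therefore cannot be told. NC replicate 2, at 737 CPM of leukocyte markers, held 4.05 CPM of *Sphk1*. The median log2 fold change of the 8 leukocyte markers tested was −0.35, with 0 higher and 0 lower at an unadjusted p value under 0.05 by edgeR. Their part in the difference between the groups was not tested. In 12 h p.r. replicate 3, the library with the high muscle markers, *Sphk1* was at 1.55 CPM as in replicate 1, and without this rat the log2 fold change was −1.90.

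RefSeq places 3 transcription starts of *Sphk1* on the plus strand of rat assembly GRCr8, the second 841 bases and the third 1562 bases after the first. An antisense noncoding RNA gene, *Khps1a*, lies on the minus strand there and covers 1189 of the 5674 bases of *Sphk1* (21.0%). In humans and rats Khps1 transcripts are known to act on the regulatory region of the kinase gene. The library kit and the alignment were strand-specific, but whether the counting used the strand is not stated in the sources used here, and no gene of the deposited table carries the name *Khps1a*. Without strand, reads of *Khps1a* that fall on exons of *Sphk1* would be counted with it. The 250 bases before the first and the second start are shown because *Khps1a* covers part of the former and all of the latter. Capitals mark the GC box GGGCGG, a binding sequence of Sp1, on either strand. The first window (chr10:102257163-102257412) holds none and the second (chr10:102258004-102258253) holds 1. The reads were aligned to another assembly, Rnor_6.0, so these positions do not apply to the count table.
Sphk1 first start: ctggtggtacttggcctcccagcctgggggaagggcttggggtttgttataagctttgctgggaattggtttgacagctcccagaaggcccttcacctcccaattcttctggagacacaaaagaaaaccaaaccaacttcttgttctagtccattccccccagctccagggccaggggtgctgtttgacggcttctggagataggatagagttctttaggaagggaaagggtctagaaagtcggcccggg
Sphk1 second start: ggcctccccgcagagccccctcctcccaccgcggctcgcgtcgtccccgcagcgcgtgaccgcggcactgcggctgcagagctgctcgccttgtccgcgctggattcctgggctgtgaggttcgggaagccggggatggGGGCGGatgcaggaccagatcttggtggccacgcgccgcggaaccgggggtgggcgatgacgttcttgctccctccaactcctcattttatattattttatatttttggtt

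Promoter windows of 300 bases, from 250 before to 50 after a start, were at hand for 6 of the 7 genes (8 windows, with none for *Spns2*). A GC box on either strand was in 5 of the 8 windows, those of *Sgpp1*, *Sgpl1*, *S1pr2*, *S1pr3*, and the second start of *Sphk1*, against 33.1% of all 33469 RefSeq promoter windows. The 8 windows, 3 of them of *Sphk1*, held 54.0 to 73.0% G and C, against a median of 51.7% over all windows. The GC box share is therefore not read as particular to these genes. The AP-1 sequence TGANTCA was in 1 window, that of the second start of *Sphk1*, and in 7.33% of all windows. The hypoxia response core ACGTG was in 1 window, that of *S1pr3*, and in 19.3% of all windows. The E-box CACGTG, which contains that core, and the cAMP response element TGACGTCA were in none of the 8 windows and in 6.42 and 1.83% of all windows. These matches are a description of the letters and not of binding.

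*Sphk2* (ENSRNOG00000021032) encodes the kinase isoform that is also found in the nucleus and at mitochondria. It was at 31.1, 27.8, 25.8, and 30.4 CPM in NC replicates 1 to 4 and at 34.7, 32.8, 34.9, and 40.0 CPM in 12 h p.r. replicates 1 to 4. The groups did not overlap, but the counting intervals of the highest NC rat and the lowest 12 h p.r. rat (28.1 to 34.4 and 28.9 to 37.1 CPM) overlapped. The log2 fold change was 0.31 with a standard error of 0.10, or 23.6% higher at 12 h p.r., and its adjusted p value was 0.433 by edgeR and 0.407 by DESeq2. With 1 rat left out, the log2 fold change ran from 0.24, without 12 h p.r. replicate 4, to 0.35, without NC replicate 1. Marker lists of several cell types had medians on the same side, and those of others had medians on the opposite side. The median log2 fold change was 0.34 for tenocyte markers (3 of 10 higher and 0 lower at an unadjusted p value under 0.05), 0.28 for pericyte and smooth muscle markers (1 of 8 higher and 0 lower), and 0.19 for endothelial markers (3 of 11 higher and 1 lower). For skeletal muscle markers (9 tested) the median was 1.49. On the opposite side were leukocyte markers (−0.35, 8 tested), red cell and platelet markers (−0.75, 2 tested), and cartilage and bone markers (−0.93, 5 tested). In each of these lists 0 were higher and 0 lower at an unadjusted p value under 0.05 by edgeR. Over all genes tested, 5.44% were higher and 4.08% lower by this measure, with a median log2 fold change of 0.02. The tenocyte marker sum was lowest of all rats in 12 h p.r. replicate 3 (20300 CPM). The part of any cell type in the value of *Sphk2* was not tested.

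Of the genes tested, 2.55% had every 12 h p.r. rat below every NC rat, as *Sphk1* did, and 3.52% had every 12 h p.r. rat above every NC rat, as *Sphk2* did. At an unadjusted p value under 0.05, *Sphk1* was the only lower and *Sphk2* (0.0128) the only higher gene of the 7, while 4.08% of all genes tested were lower and 5.44% higher. Without 12 h p.r. replicate 2, *Sgpp1* was also lower by this measure, which made 2 lower genes of the 7. Since the 7 genes were chosen with this contrast known, nothing is read from these shares. All 7 passed the filter on low counts in all 4 rats of each group, so none entered the test through 1 group alone.

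Per gene length, *Sphk1* made up 10.3, 8.39, 9.05, and 15.7% of the summed FPKM of both kinases in NC replicates 1 to 4. In 12 h p.r. replicates 1 to 4 it made up 2.74, 2.47, 2.72, and 2.59%. The mean was 2.63 ± 0.127% (SD, n = 4) at 12 h p.r. and 10.9 ± 3.33% in NC. The 12 h p.r. shares rest on 10 to 18 *Sphk1* reads per rat, for which the Poisson intervals run from 4.8 to 18.4 and from 10.7 to 28.4 reads, so how alike these rats were cannot be read from the small SD. The ratio of *Sphk2* to *Sphk1* FPKM was 37.1 ± 1.88 at 12 h p.r. and 8.75 ± 2.44 in NC. The sum of both kinases was 15.2 ± 1.33 FPKM at 12 h p.r. and 13.6 ± 1.53 FPKM in NC, with overlapping ranges, and *Sphk2* supplied most of it in every rat. The plot of both kinases gives these values with the counting error.

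**Figure D2:**
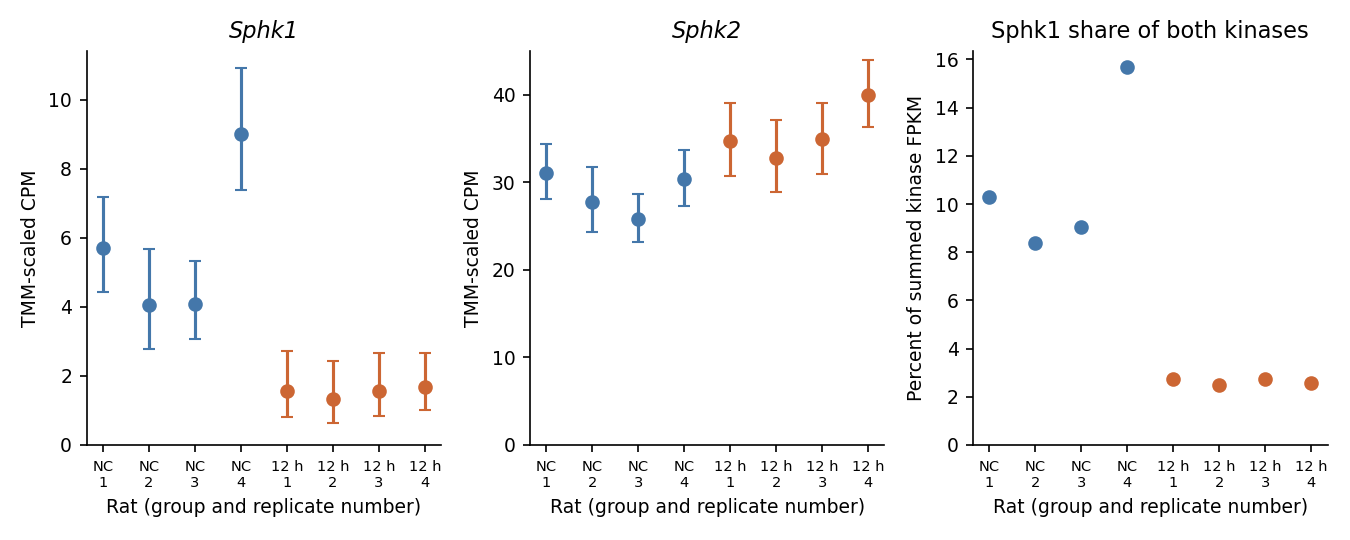
*Sphk1* and *Sphk2* in TMM-scaled CPM with exact Poisson 95% intervals as bars (left and middle), and the percent of the summed kinase FPKM that was *Sphk1* (right), for each NC rat (blue) and 12 h p.r. rat (orange). The 12 h p.r. rats lay between 1.32 and 1.69 CPM of *Sphk1*, below the lowest NC rat at 4.05 CPM, and at 2.47 to 2.74% of the kinase sum.

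The genes that remove S1P inside the cell had overlapping values. *Sgpl1* (ENSRNOG00000000565), the lyase that ends the pathway in the endoplasmic reticulum, was at 104, 94.2, 97.5, and 84.3 CPM in NC replicates 1 to 4 and at 120.0, 72.3, 109, and 88.8 CPM in 12 h p.r. replicates 1 to 4. The highest and the lowest of all 8 rats were both 12 h p.r. rats, and the log2 fold change was 0.04 (SE 0.16, edgeR adjusted p = 0.952). *Sgpp1* (ENSRNOG00000005175), an S1P phosphatase of the same compartment, was at 56.0, 46.5, 48.4, and 46.9 CPM in NC and 38.0, 53.7, 37.1, and 46.9 CPM at 12 h p.r. Replicates 1 and 3 after running were below every NC rat, and the other two lay within the NC range. The log2 fold change of *Sgpp1* was −0.17 (SE 0.13, edgeR adjusted p = 0.715). It ran from −0.28 without 12 h p.r. replicate 2, where the unadjusted p value of edgeR was 0.045 and the adjusted one 0.484, to −0.10 without 12 h p.r. replicate 3.

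*Spns2* (ENSRNOG00000057040), the S1P exporter known from endothelial cells, had the highest level of the 7 genes. It was at 116, 103, 104, and 127 CPM in NC replicates 1 to 4 and at 122, 107, 135, and 126 CPM in 12 h p.r. replicates 1 to 4. The ranges overlapped in part, with 12 h p.r. replicate 3 above every NC rat, and the log2 fold change was 0.12 (SE 0.11, edgeR adjusted p = 0.749). With 1 rat left out it ran from 0.07, without 12 h p.r. replicate 3, to 0.19, without NC replicate 4. The 12 h p.r. rat with the most *Spns2*, replicate 3, also had the highest endothelial marker sum, 2070 CPM, and the one with the least, replicate 2, had the lowest, 1700 CPM. That replicate 3 is also the library with the high muscle markers. In NC, replicate 4 was highest in both (127 CPM of *Spns2* and 1850 CPM of endothelial markers). NC replicate 1, with the lowest endothelial sum (1740 CPM), had more *Spns2* (116 CPM) than replicates 2 and 3 (103 and 104 CPM). The part of endothelial cells in these values was not tested.

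The receptor genes had similar means in both groups. *S1pr2* (ENSRNOG00000020653) was at 37.7, 33.4, 38.1, and 37.6 CPM in NC replicates 1 to 4, a narrow range. After running it was at 33.9, 42.9, 23.9, and 41.1 CPM in replicates 1 to 4. Replicate 3, with the low tenocyte and high muscle markers, was the lowest of all 8 rats, and the log2 fold change of −0.05 (SE 0.17, edgeR adjusted p = 0.947) became 0.10 without it. *S1pr3* (ENSRNOG00000014524), whose receptor couples to several G proteins, was at 13.1, 14.5, 20.8, and 18.5 CPM in NC and at 21.4, 22.4, 15.2, and 14.9 CPM at 12 h p.r. Each group held a higher and a lower pair of rats, and the log2 fold change was 0.14 (SE 0.20, edgeR adjusted p = 0.854). With 1 rat left out it ran from 0.03, without 12 h p.r. replicate 2, to 0.26, without NC replicate 3.

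The rest of the sphingolipid pathway was followed in 46 further genes, of which 37 had enough counts. None of the 37 passed an adjusted p value of 0.05 by edgeR, and at an unadjusted p value under 0.05 there was 1 lower and 0 higher (2.7%, against 9.51% of all genes tested). Their median log2 fold change was −0.07, beside 0.02 for all genes tested and 0.04 for the 7 genes above, and 18 were above and 19 below 0. The plot of log2 fold changes by role shows that, apart from *Smpd3*, these genes lay between −0.42 (*Ormdl1*) and 0.36 (*S1pr4*).

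Of the other receptors, *S1pr1*, the receptor of endothelial cells and lymphocytes, was the most abundant at 158 ± 13.5 CPM at 12 h p.r. and 168 ± 28.8 CPM in NC (SD, n = 4 each), with a log2 fold change of −0.09 (SE 0.14). Its mean FPKM of 65.0 in NC was also above the 29.0 of *Spns2*. *S1pr4*, a receptor of leukocytes, had a log2 fold change of 0.36 (SE 0.22) from 4.47 CPM in NC, and *S1pr5*, known from oligodendrocytes and natural killer cells, one of 0.00 (SE 0.29) from 3.66 CPM. Of the lipid phosphatases that act on S1P outside the cell, *Plpp3* was at 353 ± 58.0 and 418 ± 59.4 CPM and *Plpp1* at 149 ± 15.1 and 157 ± 18.2 CPM at 12 h p.r. and in NC (SD, n = 4). Per gene length both were abundant, with means of 114 and 136 FPKM for *Plpp3* and 101 and 106 FPKM for *Plpp1*. Their log2 fold changes were −0.24 (SE 0.16) and −0.07 (SE 0.12), and that of the scarce *Plpp2* (2.05 FPKM in NC) was 0.18 (SE 0.32). *Aldh3a2*, whose dehydrogenase handles the aldehyde that the lyase releases, had a log2 fold change of 0.02 (SE 0.12). *Sgpp2*, the other intracellular phosphatase, had 11 reads over the 8 rats and *Mfsd2b*, the exporter of red cells and platelets, had 4, so neither was tested. *Abcc1* and *Abca1*, transporters that can release S1P, had log2 fold changes of 0.17 (SE 0.19) and −0.25 (SE 0.17), and *Apom*, its carrier in plasma, one of 0.33 (SE 0.32) from 1.26 CPM.

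Among the ceramidases, which supply the sphingosine that the kinases use, *Acer3* was the gene with an unadjusted p value under 0.05 (0.0428). It was at 34.3 to 40.6 CPM at 12 h p.r. and 37.5 to 52.0 CPM in NC, so the ranges overlapped, with a log2 fold change of −0.28 (SE 0.12, edgeR adjusted p = 0.507). *Asah1*, the acid ceramidase of lysosomes, had a log2 fold change of −0.29 (SE 0.22). In sphingomyelin turnover, *Smpd3*, a neutral sphingomyelinase, had the lowest log2 fold change of the 37 genes, −1.11, with a wide standard error of 0.57 (edgeR adjusted p = 0.575). It ranged from 12.9 to 67.2 CPM among the NC rats and from 10.3 to 27.3 CPM after running. *Smpd1*, the acid sphingomyelinase, was at 0.15 (SE 0.11). Next in the other groups were *Gba2* (−0.28, SE 0.13) and *Ugcg* (−0.15, SE 0.10) of glucosylceramide metabolism, *Kdsr* (0.13, SE 0.10) and *Cers6* (0.29, SE 0.26) of ceramide synthesis, and *Ormdl3* (0.29, SE 0.17) and *Sptssa* (−0.17, SE 0.13) around serine palmitoyltransferase, all as log2 fold changes.

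**Figure D3:**
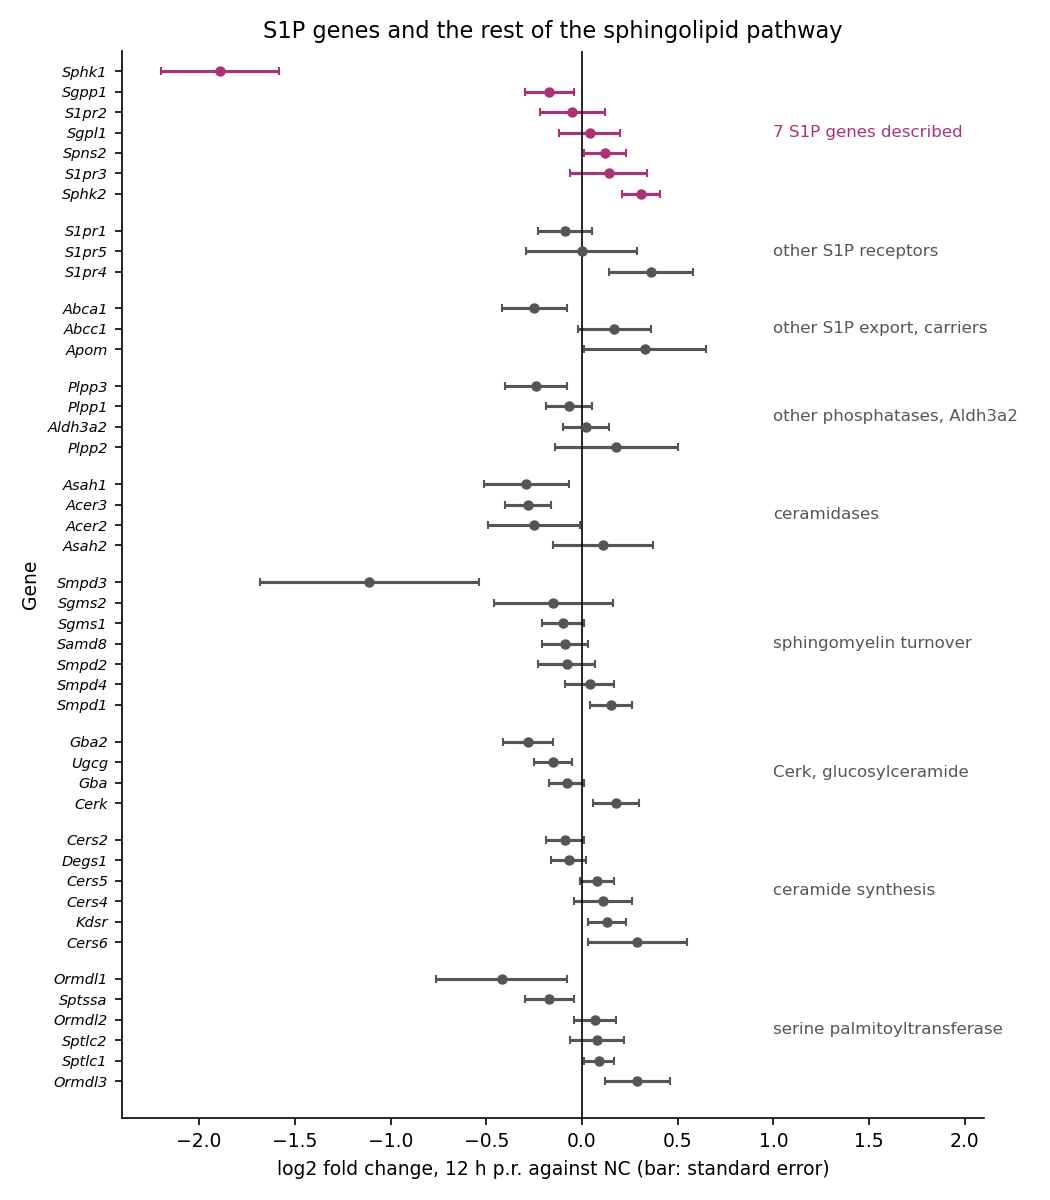
The log2 fold change of 12 h p.r. against NC with its standard error (bar) from edgeR, for the 7 S1P genes (purple) and the 37 tested genes of the rest of the pathway (gray), grouped by role. *Sphk1* lies at −1.89, *Smpd3* at −1.11 with a bar of 0.57, and every other gene between −0.42 and 0.36.

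The genes whose pattern over the 8 rats was nearest to that of *Sphk1* were *Zbtb16*, *Wee1*, and *Tagap*, by the root-mean-square difference of log2 CPM after centering each gene on its mean. They were picked for this likeness, so their levels are a description. These differences were 0.28, 0.32, and 0.33 on the log2 scale, against a median of 0.96 over all genes tested. The SD of *Sphk1* itself was 0.98 on this scale, so a gene that did not vary at all would lie close to that median. *Zbtb16*, a zinc finger transcription factor gene known to respond to glucocorticoids, was at 22.0, 16.8, 19.3, and 31.9 CPM in NC replicates 1 to 4 and at 9.58, 9.75, 7.14, and 7.60 CPM in 12 h p.r. replicates 1 to 4. *Wee1*, a mitotic kinase gene, was at 82.2, 65.4, 64.3, and 107 CPM in NC and 37.1, 34.3, 34.5, and 38.4 CPM at 12 h p.r. *Tagap*, a GTPase-activating protein gene of lymphocytes, was at 13.0, 5.89, 8.84, and 14.3 CPM in NC and 3.36, 4.35, 2.86, and 4.60 CPM at 12 h p.r. In all 3 genes, as in *Sphk1*, NC replicate 4 was the highest rat and NC replicate 1 the next, and no 12 h p.r. rat reached an NC rat. For *Sphk2*, which varied little, the nearest genes were *Ppp1r14a*, *Grasp*, and *Elk3*, with differences of 0.05, 0.06, and 0.06, while 2140 genes lay within 0.2. The SD of *Sphk2* itself was 0.2 on this scale, so a gene that did not vary at all would lie about 0.2 away. That is farther than the 3 nearest genes.

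**Figure D4:**
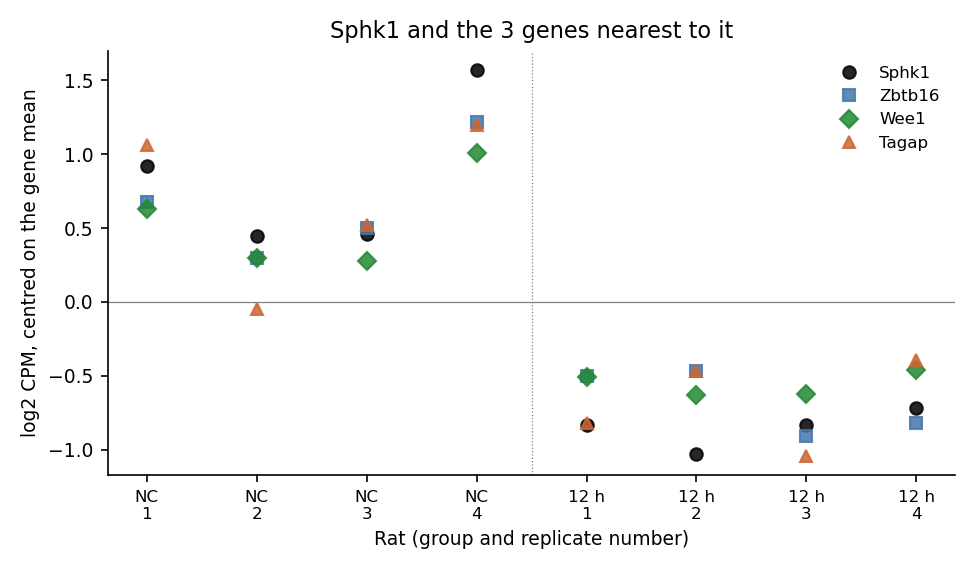
log2 CPM of *Sphk1* (black circles) and of *Zbtb16*, *Wee1*, and *Tagap*, each centered on its mean over the 8 rats, for NC rats (left) and 12 h p.r. rats (right). NC replicate 4 was highest for all 4 genes, from 1.01 to 1.57, and all 12 h p.r. rats were at −0.39 or lower.

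The direction of both kinase genes was kept in all 16 other fits, as the plot of the fits shows. The size for *Sphk1* was lowest, −0.81 (SE 0.16), with limma on log2(FPKM + 1), where the added 1 was above every *Sphk1* FPKM at 12 h p.r. and the scale understates the change of low genes. With log2(FPKM + 0.1) it was −1.61 (SE 0.25).

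**Figure D5:**
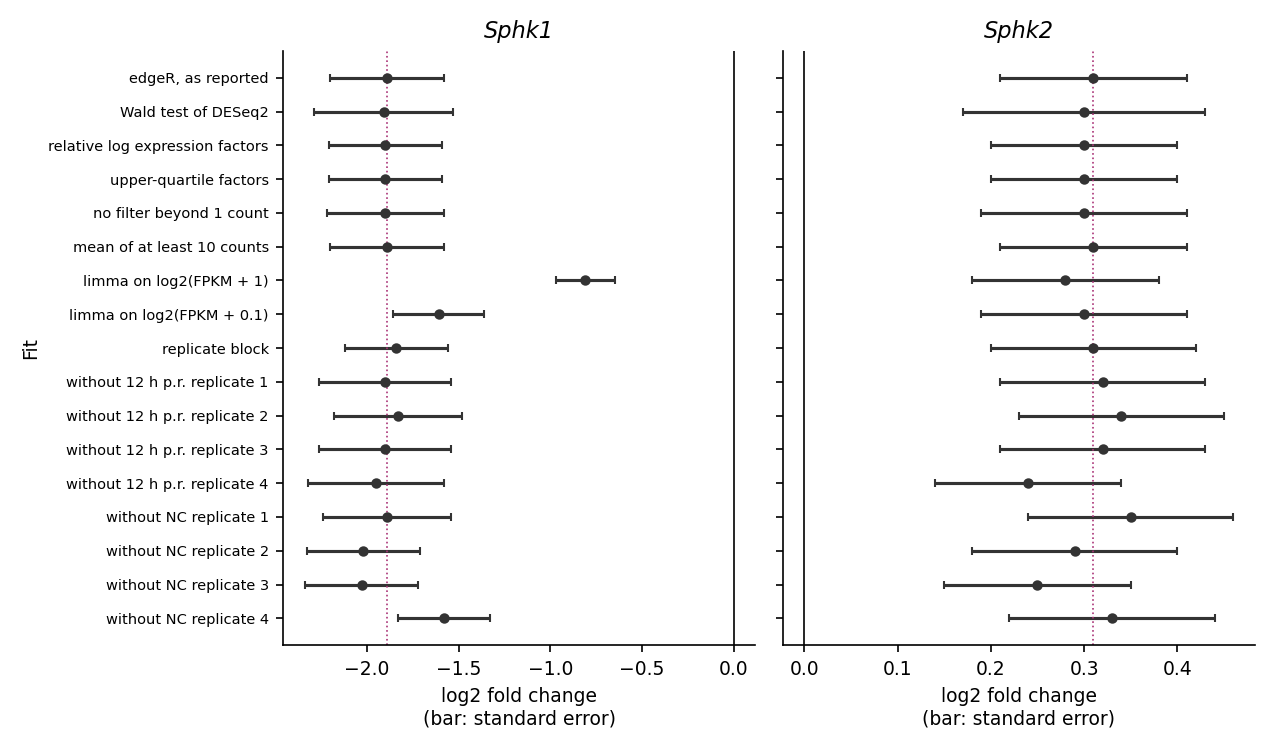
The log2 fold change of *Sphk1* (left) and *Sphk2* (right) with its standard error (bar) under each fit, with a dotted line at the reported value and a solid line at 0. *Sphk1* lay between −2.03 and −0.81 and *Sphk2* between 0.24 and 0.35.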

How the data were processed

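The authors aligned reads to Rnor_6.0 with Hisat2 2.1.0, used featureCounts 1.6.3 to assign them to Ensembl genes, and deposited raw counts for each rat. They also deposited FPKM, which scale the counts by gene length and sequencing depth. Their table of DESeq2 1.30.1 results, which holds log2 fold changes and p values, was not used, nor were its 8 columns of FPKM. Settings for multimapping reads and strand are not given in the sources used here. Promoter sequences came from RefSeq (GRCr8). From the counts, filterByExpr (minimum count 10), TMM factors and the quasi-likelihood test of edgeR 4.0.16 compared 12 h p.r. with NC, with Benjamini-Hochberg adjustment over 13937 genes. Standard errors came from the F statistic. R 4.3.3 was used. The scripts were tested on simulated data.

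The members and the lists of pathway genes, markers and motifs were chosen with earlier results of these data known. Beyond the 7 genes, the text names the S1P receptors, exporters and phosphatases of the pathway list, the 2 genes of each other role with the lowest unadjusted p value, and the 3 genes nearest in pattern (log2 CPM, prior count 2) to the members with the largest and the smallest log2 fold change. *Ormdl1*, *Degs1* and *Smpd2* are named for other reasons, after their values were seen.

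Alternatives were DESeq2 1.42.0, relative log expression and upper-quartile factors, no filter beyond 1 count, a mean of at least 10 counts, limma 3.58.1 on log2(FPKM + 1) and log2(FPKM + 0.1) for a mean FPKM of at least 0.1, the replicate number as a block, and leaving out each rat. With at least 7350509 reads per rat, genes near 1 CPM rest on few reads.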

Additional observations from a re-analysis of the deposited data

Results flagged for a closer look

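In 9 of 104 sets of 4 rats, 1 rat stood apart from the other 3 by Dixon's test at its 95% critical value, where chance gives about 1 in 20, or 5.2. Among the 7 genes this was *S1pr2* in NC replicate 2, at 33.4 CPM against 37.6 to 38.1 CPM. Among the other pathway genes it was *Degs1* in 12 h p.r. replicate 1 (78.7 against 92.4 to 94.0 CPM), *Smpd2* in 12 h p.r. replicate 4 (22.5 against 16.4 to 16.6 CPM), *Smpd3* in 12 h p.r. replicate 1 (27.3 against 10.3 to 12.0 CPM), and *Plpp3* in 12 h p.r. replicate 3 (267 against 372 to 391 CPM). Of the marker sums, 12 h p.r. replicate 3 was apart in tenocyte markers (20300 against 55200 to 56500 CPM) and skeletal muscle markers (59200 against 2310 to 3220 CPM). NC replicate 4 was apart in endothelial markers (1850 against 1740 to 1750 CPM), and NC replicate 3 in cartilage and bone markers (1390 against 48.7 to 80.6 CPM).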

How the results depend on the processing

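By edgeR, 1 gene was called lower and 0 higher at 12 h p.r., with 1326 at an unadjusted p value under 0.05. DESeq2 called 41 lower and 54 higher, and gave *Sphk1* a log2 fold change of −1.91 and an adjusted p value under 0.05. Limma called 0 lower with log2(FPKM + 1) and 3 with log2(FPKM + 0.1). When a fold change of at least 2 was added to the edgeR call, 0 genes were called lower. Without 1 rat, 0 to 0 genes were called lower, with 879 to 1580 at an unadjusted p value under 0.05. The pathway genes at an unadjusted p value under 0.05 numbered 1 by edgeR, 0 by DESeq2, 0 by limma with either pseudocount, and 0 to 2 without 1 rat. The sign of *Sgpl1* turned without 12 h p.r. replicate 1 (−0.08), 12 h p.r. replicate 3 (−0.02) or NC replicate 4 (−0.01), and that of *S1pr2* without 12 h p.r. replicate 3 (0.10). Without 1 rat these genes ran from −0.08 to 0.16 and from −0.15 to 0.10. Neither gene passed the test in any of these fits, and the cause was not tested. The order of levels by FPKM was kept with CPM per gene length and without any rat but 12 h p.r. replicate 2, without which 5 of the 7 genes kept their place in that group. Depth limits *Sphk1* most, which had 53 reads over the 12 h p.r. rats.

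With the replicate number as a block, 0 genes were called lower and 974 had an unadjusted p value under 0.05, 0 of them in the pathway list, and *Sphk1* was at −1.84 (edgeR adjusted p = 0.47). The deviations of same-numbered rats correlated at 0.07, −0.19, 0.12, and 0.08, and 2 of 8 rats correlated best with their own number. No pairing by number was seen in these values, but so coarse a check cannot show that the rats were unpaired.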
